A study of Mus musculus with 8 samples.

Results

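Respiratory complex I genes were examined in RAW264.7 cells, a mouse macrophage line of BALB/c origin, 24 h after transfection with small interfering RNA (siRNA). The genes were all those whose name in the deposited table of intensities begins with Nduf followed by a, ab, b, c, s, v or af. This gave 35 of the 18136 gene names and 44 of the 25697 probes. Each gene was read by the probe with the highest mean intensity over all 8 arrays, a choice that uses the level of a probe and not the siRNA group. The set itself was selected on an earlier result in these arrays, that most genes of oxidative phosphorylation had differences below 0 after the Ypel5 siRNA. By role, 7 genes encode core subunits, 26 encode accessory subunits, 1 (Ndufaf1) encodes an assembly factor, and 1 (Ndufa4) encodes a protein now assigned to cytochrome c oxidase rather than to complex I.

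One group of 4 arrays held RNA from cells given a scrambled control siRNA, and the other group of 4 held RNA from cells given a Ypel5-specific siRNA. Both groups received the same transfection reagent, a single siRNA product each, and the labels name no other stimulus. The replicates are numbered in the labels but are not said to be separate cultures, and the errors and p-values below may therefore describe technical repeats only. The design asks which transcripts differ when Ypel5, described in the study's title as a negative regulator of TBK1/IKBKE and interferon-beta, is targeted. Values are log2 intensities after background correction and quantile normalization, and a difference is the Ypel5 siRNA mean minus the scrambled mean on that scale.

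Complex I is the entry point of the mitochondrial respiratory chain. It oxidises NADH, passes the electrons through a flavin and a chain of iron-sulfur clusters to ubiquinone, and pumps protons across the inner membrane. Its core subunits carry the catalysis and are split between nuclear genes and the mitochondrial genome. The accessory subunits surround and stabilise the core, and assembly factors join the parts without remaining in the finished enzyme. The matrix arm consists of an NADH-oxidising N module and a ubiquinone-reducing Q module, and the membrane arm has a proximal part next to the Q module and a distal part. In macrophages, complex I is known as a source of mitochondrial reactive oxygen species and its activity changes with inflammatory activation.

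Promoters are shown for Ndufb7, Ndufb2 and Ndufs6, the genes with the smallest p that held a match among the motifs searched, to let the regulatory sequence be read beside the values. The sequences are RefSeq windows of build GRCm38.p6, each with 300 bases, written 5′ to 3′ on the gene's strand and reaching from 250 bases before the annotated start to 50 after it. They lie at chr8:83566508-83566807 (plus strand) for Ndufb7, chr6:39592315-39592614 (plus strand) for Ndufb2 and chr13:73328433-73328732 (minus strand) for Ndufs6. Capitals mark the motif matches, which do not overlap one another. They are CCGGAAG (ETS family) in Ndufb7, AAGGTCA (oestrogen-related receptor, ERR) and CCAAT in Ndufb2, and, in order, the reverse complement of CCAAT, the reverse complement of the NRF1 motif (GCGCA and GCGC around 1 free base) and AANATGGCG (YY1) in Ndufs6.
Ndufb7: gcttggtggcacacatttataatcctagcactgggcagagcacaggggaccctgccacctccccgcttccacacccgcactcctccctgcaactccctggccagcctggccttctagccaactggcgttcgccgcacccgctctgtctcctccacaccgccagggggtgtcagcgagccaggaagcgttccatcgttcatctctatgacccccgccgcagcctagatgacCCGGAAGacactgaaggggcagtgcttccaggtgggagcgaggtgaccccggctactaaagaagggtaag
Ndufb2: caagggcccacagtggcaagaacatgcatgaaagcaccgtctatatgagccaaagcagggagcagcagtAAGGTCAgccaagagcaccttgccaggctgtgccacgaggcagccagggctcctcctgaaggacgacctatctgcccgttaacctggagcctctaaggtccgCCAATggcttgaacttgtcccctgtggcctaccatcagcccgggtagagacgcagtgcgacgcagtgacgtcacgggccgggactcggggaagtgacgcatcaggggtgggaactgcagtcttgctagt
Ndufs6: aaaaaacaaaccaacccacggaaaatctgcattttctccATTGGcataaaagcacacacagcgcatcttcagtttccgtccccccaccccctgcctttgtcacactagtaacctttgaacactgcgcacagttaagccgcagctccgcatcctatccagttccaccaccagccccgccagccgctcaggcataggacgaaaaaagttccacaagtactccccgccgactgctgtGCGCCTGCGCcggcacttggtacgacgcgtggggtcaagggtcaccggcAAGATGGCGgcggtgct

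Of the 31 tested genes with a promoter window, 5 (16.1%) held the NRF1 motif on either strand, against 12.9% of the 6381 tested genes with a window and 4.60% of all 32851 windows. YY1's AANATGGCG was held by 7 of 31 (22.6%), against 6.75% of the tested genes and 2.38% of all windows. These 7 were Ndufs6, Ndufa7, Ndufs7, Ndufb11, Ndufc1, Ndufa9 and Ndufs4. CCGGAAG was held by 5 of 31 (16.1% against 22.7% of tested genes and 8.86% of all windows), AAGGTCA by 2 (6.45% against 4.07% and 4.72%) and CCAAT by 10 (32.3% against 44.2% and 37.4%). Of the 8 tested genes with the smallest p, 4 held at least 1 of these motifs, as did 20 of all 31. The windows had a median GC content of 58.5% (range 45.3% to 70.7%), and the median of the tested genes was 60.7%. A match describes these letters only and shows no binding.

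Between 11249 and 11612 probes were detected per array, at a detection p under 0.05. The number of arrays limits the precision. Raw median intensity averaged 189.2 ± 6.26 on scrambled and 209.5 ± 14.6 on Ypel5 siRNA arrays (SD, n = 4 each). An exact permutation test, two-sided, gave p = 0.0857, where 4 against 4 allow no less than 0.0286, and its part in the results was not tested. Of 7 macrophage markers 6 were detected on all 8 arrays, with Itgam on 1 of 8. None of the 3 fibroblast markers and neither of the 2 B cell markers on the array was detected. Of the T cell markers, Cd4 was detected on 3 arrays, Cd3d on 1 and Cd3e on 0. Of the epithelial markers on the array, Cdh1 was detected on 5 arrays and Krt8 on 0. The part of these markers in the results was not tested. Ypel5 itself was detected on 0 of 8 arrays (log2 4.70 ± 0.095 on scrambled and 4.79 ± 0.10 on Ypel5 siRNA arrays, SD, n = 4 each), so these arrays do not show whether its mRNA was lowered. The groups are therefore named as labelled.

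After the Ypel5 siRNA no complex I gene passed the test, while most had differences slightly below 0. Of the 35 genes, 34 were detected on all 8 arrays and tested, and Ndufs1 was detected on none. In limma's test across 8145 genes, 0 of the 34 passed an adjusted p of 0.05 in either direction. The background was 4.95% of all genes (403), with 241 higher (2.96%) and 162 lower (1.99%). At an unadjusted p under 0.05, 7 of the 34 were lower (20.6%, background 10.5%) and 0 were higher (background 11%). Differences below 0 were found for 25 of the 34 (73.5%), against 49.7% of all genes tested. After normalization the groups did not overlap for 8 of the 34, all with the Ypel5 siRNA arrays lower (23.5%, background 7.29%), and for 0 with them higher (background 7.92%). The median difference was log2 -0.064, against 0.0010 for all genes tested, and single genes ranged from -0.39 to 0.098. Since the set was selected on that direction, these counts are a description and no separate evidence of it. In bulk RNA, fewer cells with the transcript and less of it per cell cannot be told apart. With other normalizations or variance models between 0 and 5 members passed, and the values are given with the processing alternatives.

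**Figure D1:**
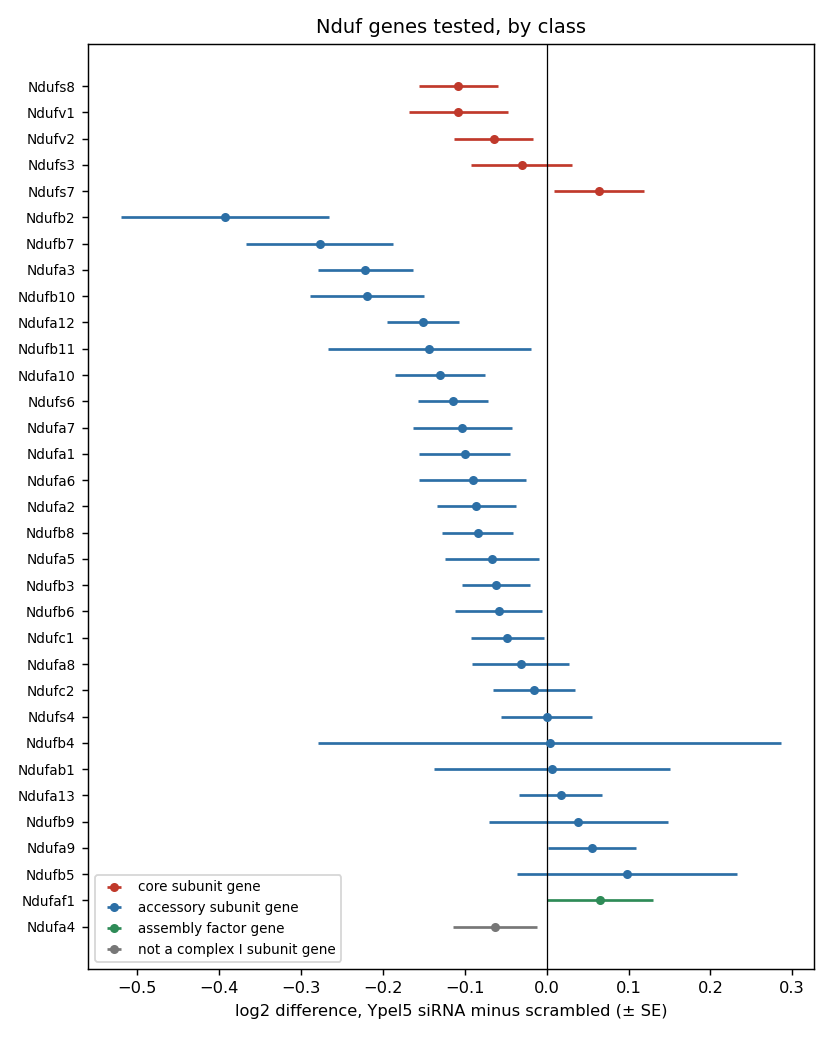
Log2 difference of 33 of the 34 tested Nduf genes between Ypel5 siRNA and scrambled arrays (points, x axis, with standard errors as bars), one gene per line and coloured by class. The values reach from -0.39 (Ndufb2) to 0.098 (Ndufb5), with 25 of the 33 genes drawn below 0.

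**Figure D2:**
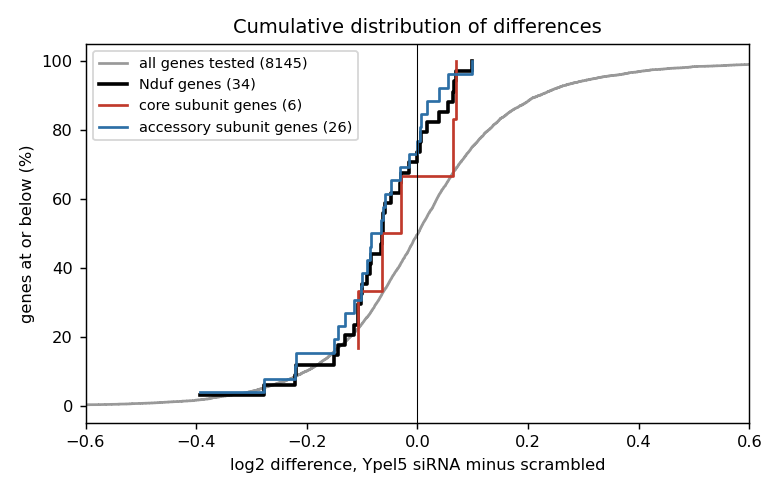
Cumulative percentage of genes (y axis) at or below a given log2 difference (x axis) for all 8145 genes tested, the 34 Nduf genes, the 6 core and the 26 accessory subunit genes. The Nduf curve crosses 0 at 73.5% where that of all genes crosses at 49.7%, and its upper end stops at 0.098.

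Among the core subunits, which bind the flavin and the iron-sulfur clusters, 0 of 6 tested genes passed (background 4.95%). Differences were below 0 for 4 of 6 (background 49.7%), with a median of log2 -0.048. Ndufv1 encodes the flavin-carrying subunit at which NADH is oxidised. Its log2 values were 12.89, 12.91, 12.86 and 13.03 on the scrambled arrays and 12.71, 12.80, 12.91 and 12.83 on the Ypel5 siRNA arrays. The groups overlapped, with the lowest value on Ypel5 siRNA replicate 1 and the highest on scrambled replicate 4 (difference -0.11, SE 0.060, limma adjusted p = 0.356). Ndufv2, an iron-sulfur subunit beside it, read 13.29, 13.36, 13.26 and 13.36 in the scrambled and 13.28, 13.27, 13.28 and 13.18 in the Ypel5 siRNA group. These also overlapped, and only Ypel5 siRNA replicate 4 lay below all scrambled arrays (difference -0.064, SE 0.048, limma adjusted p = 0.502). The third core gene of the N module, Ndufs1, encodes the largest iron-sulfur subunit, and its single probe had detection p-values between 0.232 and 0.860, so no fold is given.

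The Q module core genes divided in sign. Ndufs8, which encodes an iron-sulfur subunit near the ubiquinone site, read 13.16, 13.20, 13.06 and 13.18 on scrambled and 13.08, 13.05, 13.05 and 12.99 on Ypel5 siRNA arrays. Scrambled replicate 3 was the one control array within the range of the others (difference -0.11, SE 0.048, limma adjusted p = 0.241). Ndufs7, which carries the terminal iron-sulfur cluster, read 13.25, 13.22, 13.19 and 13.21 against 13.28, 13.34, 13.35 and 13.16. Its Ypel5 siRNA arrays were both the highest and the lowest of all 8 (difference 0.064, SE 0.055, limma adjusted p = 0.565).

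Ndufs3, another Q module subunit, read 12.39, 12.52, 12.50 and 12.36 against 12.50, 12.46, 12.37 and 12.32, with wide overlap (difference -0.031, SE 0.062, limma adjusted p = 0.824). By module, all 8 tested N module genes had differences below 0 (background 49.7%), with a median of -0.097. Among them Ndufs4 was at -7.7e-05, in effect no difference, and kept its sign in 11 of 19 processing alternatives. In the N module 2 genes were without overlap (background 7.29% lower and 7.92% higher). In the Q module 3 of 6 had differences below 0, with a median of 0.012 and 0 without overlap. The difference between modules was not tested.

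Accessory subunit genes had a median difference of log2 -0.075, with 20 of 26 below 0 (background 49.7%). Of the 26, 7 were lower at an unadjusted p under 0.05 (background 10.5%) and 0 were past the adjusted threshold (background 4.95%). All 8 genes without overlap between the groups were accessory: Ndufa3, Ndufa12, Ndufb10, Ndufb7, Ndufb2, Ndufs6, Ndufb8 and Ndufb3 (8 of 26, background 7.29%). These separations hold for normalized values. Before normalization Ypel5 siRNA replicate 1, the array with the highest raw median (225.6), had the highest intensity for each of them except Ndufb2. For Ndufb2 the raw intensities of the groups overlapped as well. Ndufa3, a small subunit of the proximal membrane arm, had the smallest p. Its log2 values were 12.76, 12.72, 12.77 and 12.55 on scrambled and 12.48, 12.48, 12.51 and 12.46 on Ypel5 siRNA arrays. The Ypel5 siRNA arrays lay close together and below every control, of which replicate 4 was the lowest. The means were 12.70 ± 0.10 and 12.48 ± 0.020 (SD, n = 4 each), a difference of -0.22 (SE 0.058, limma adjusted p = 0.0700), which became -0.27 (limma adjusted p = 0.0273) without scrambled replicate 4.

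Ndufa12, an N module subunit, read 13.14, 13.24, 13.18 and 13.19 against 13.05, 13.05, 13.06 and 12.99. After normalization all Ypel5 siRNA arrays were below all controls (difference -0.15, SE 0.044, limma adjusted p = 0.0914). Ndufs6, a zinc-binding subunit of the N module whose promoter is printed above, read 13.59, 13.56, 13.54 and 13.56 against 13.42, 13.43, 13.51 and 13.44. The groups were separate, with Ypel5 siRNA replicate 3 nearest to the controls (difference -0.11, SE 0.043, limma adjusted p = 0.170).

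In the distal membrane arm 7 of 11 genes had differences below 0 (background 49.7%), with a median of -0.062. The groups did not overlap for 5 of 11 (background 7.29%). Ndufb7, a subunit with paired cysteines that faces the intermembrane space, read 9.78, 9.87, 9.69 and 9.66 on scrambled and 9.50, 9.65, 9.48 and 9.25 on Ypel5 siRNA arrays. The groups were separated by the narrow gap between scrambled replicate 4 and Ypel5 siRNA replicate 2, and replicate 4 of the Ypel5 siRNA group was lowest (difference -0.28, SE 0.089, limma adjusted p = 0.120). Ndufb10, another cysteine-rich subunit of this arm, read 10.40, 10.64, 10.48 and 10.69 against 10.33, 10.31, 10.35 and 10.34. Here the spread was among the controls, with SDs of 0.14 and 0.018 (difference -0.22, SE 0.069, limma adjusted p = 0.115).

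Ndufb2, a small membrane arm subunit, had the most negative difference. It read 9.0, 8.82, 8.95 and 8.90 on scrambled and 8.12, 8.60, 8.67 and 8.71 on Ypel5 siRNA arrays. All Ypel5 siRNA arrays were lower than all controls, and replicate 1 was far below the other three. The difference was -0.39 (SE 0.13, limma adjusted p = 0.120) and -0.26 (SE 0.063, limma adjusted p = 0.0829) without that array. In the proximal arm Ndufa10, a nucleoside kinase-like subunit, read 12.80, 12.83, 12.70 and 12.76 against 12.61, 12.59, 12.75 and 12.63. Ypel5 siRNA replicate 3 lay within the controls (difference -0.13, SE 0.055, limma adjusted p = 0.215).

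**Figure D3:**
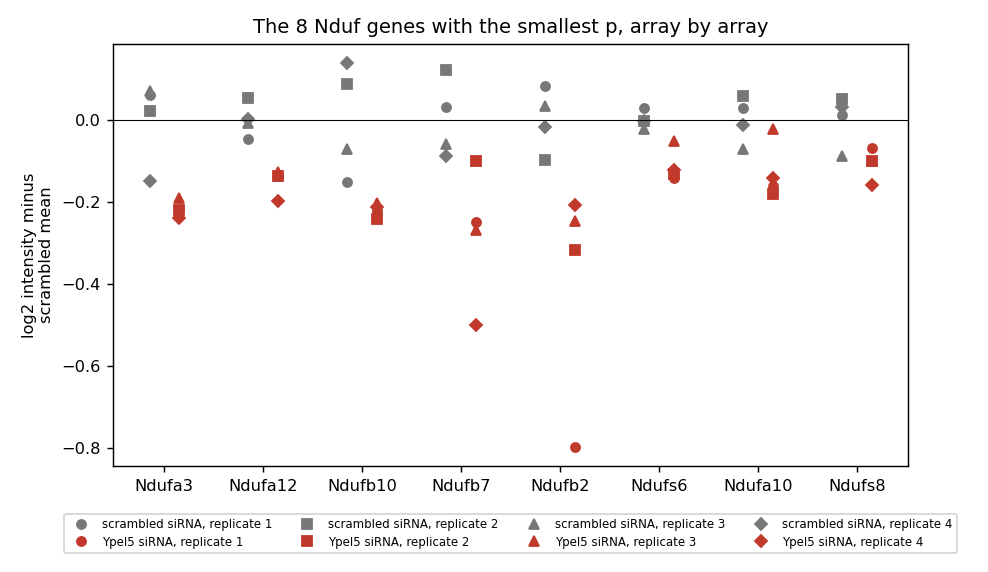
Log2 intensity on each array minus the mean of the scrambled arrays (y axis) for the 8 Nduf genes with the smallest p (x axis), with scrambled arrays in grey, Ypel5 siRNA arrays in red and replicate numbers by symbol. The groups are separate for Ndufa3, Ndufa12, Ndufb10, Ndufb7, Ndufb2 and Ndufs6, and overlap for Ndufa10 and Ndufs8.

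The largest difference above 0 was that of Ndufb5, a distal arm subunit gene, and was smaller than its standard error. It read 10.76, 10.79, 10.57 and 11.02 against 10.79, 10.84, 10.67 and 11.23, with replicate 4 highest in both groups (difference 0.098, SE 0.13, limma adjusted p = 0.729). The other 18 tested members that are not given by array ranged from -0.14 (Ndufb11) to 0.055 (Ndufa9). Of these 18, 13 were below 0 (background 49.7%), with limma adjusted p from 0.312 to 0.999. They include Ndufs4, an N module subunit whose loss causes Leigh-like disease in mice, at -7.7e-05 (SE 0.056). Ndufab1, the mitochondrial acyl carrier protein, was at 0.0061 (SE 0.14) and Ndufa13, also known as GRIM-19, at 0.017 (SE 0.050). Ndufb4 was at 0.0038 with the widest error (SE 0.28), and the RefSeq table lists the related genes Ndufb4b and Ndufb4c, which its probe may also read.

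Of the 34 genes 7 had several probes, 16 in all, and in 3 of these the probes differed in sign. For Ndufb11 the brighter probe gave -0.14 (SE 0.13) and the dimmer, detected on 7 of 8 arrays, 0.45 (SE 0.23). For Ndufa5, a Q module subunit, the values were -0.067 (SE 0.067) and 0.17 (SE 0.14), and the 4 Ndufs4 probes ran from -0.057 to 0.11. The dimmer probe of Ndufb6 read -0.23 (SE 0.074, limma unadjusted p = 0.0131 in a fit over all probes) where the brighter read -0.059 (SE 0.064). The dimmer probes of Ndufa8 (-0.13) and Ndufc1 (-0.13) were also further below 0 than the brighter ones (-0.032 and -0.048). The estimated difference thus varied between probes of these genes, and whether the probes differed by more than their errors was not tested.

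On each array, the deviation of a gene was taken from its own mean over the 8 arrays, and the median over genes was compared between arrays as a description. Over the 34 Nduf genes it was 0.034, 0.057, 0.026 and -0.011 on scrambled replicates 1 to 4 and -0.0018, -0.041, -0.043 and -0.062 on Ypel5 siRNA replicates 1 to 4. Scrambled replicate 4 and Ypel5 siRNA replicate 1 lay in each other's range, so the groups overlapped. For accessory genes it was 0.043, 0.057, 0.032 and 0.0061 against -0.042, -0.041, -0.045 and -0.062, without overlap. For core genes the ranges were -0.014 to 0.067 and -0.100 to 0.013, and they overlapped. All genes tested stayed between -0.0024 and 0.0052 on every array. Quantile normalization, which gives all arrays the same distribution, largely fixes this in advance. Of the 34 genes, 24 were among the 1629 genes with the highest mean log2 level. Of these 24, 21 were below 0 with a median of -0.065, while all 1629 had 49.2% below 0 and a median of 0.0019. In the lower level groups of 1629 genes each, the sign was mixed. From higher to lower level, 1 of 4, 2 of 3 and 1 of 3 members were below 0, with medians of 0.067, -0.28 and 0.0038. The lowest group held 0 members, and the part of level in the differences was not tested.

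**Figure D4:**
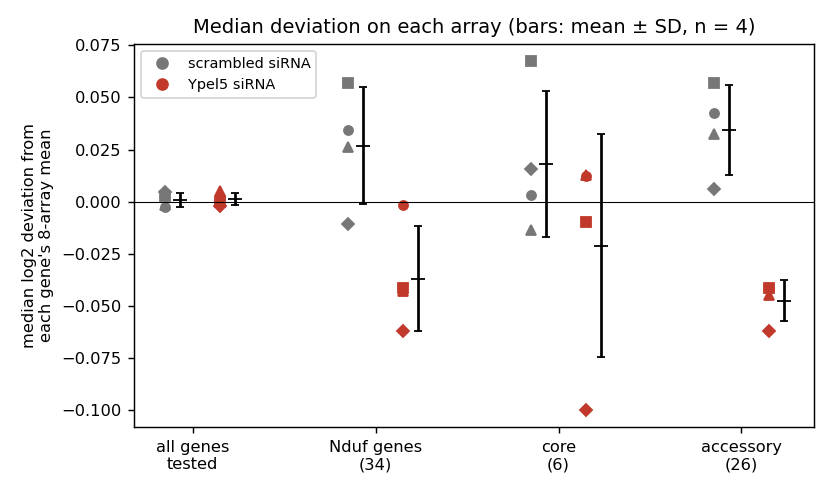
Median log2 deviation from each gene's mean over 8 arrays (y axis) on each array, for all genes tested, the 34 Nduf genes, the 6 core and the 26 accessory genes, with grey points for scrambled and red points for Ypel5 siRNA arrays and bars for mean ± SD (n = 4). The accessory points of the groups are apart, at 0.0061 and above against -0.041 and below, and the core points overlap.

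The assembly factor Ndufaf1, which helps to build the membrane arm intermediate, did not share the sign of most subunits. It read 11.40, 11.21, 11.35 and 11.30 against 11.37, 11.26, 11.44 and 11.45, with overlap (difference 0.065, SE 0.064, limma adjusted p = 0.622). With 1 gene, the class cannot be compared with the subunits. The deposited table names further complex I genes by older names that the rule does not take, and 5 of these were matched through RefSeq synonyms. Ndufaf5, whose human counterpart hydroxylates an arginine of NDUFS7, read 10.51, 10.42, 10.46 and 10.61 against 10.21, 10.29, 10.22 and 10.36, without overlap (difference -0.23, SE 0.059, limma adjusted p = 0.0662). Ndufaf3 was at -0.13, Ndufaf4 at -0.10, Ndufaf7 at 0.0083 and the N module subunit gene Ndufv3 at -0.11, with adjusted p from 0.394 to 0.952.

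Ndufa4, the gene kept by name whose product belongs to cytochrome c oxidase, read 14.35, 14.32, 14.35 and 14.23 against 14.34, 14.22, 14.21 and 14.23, with overlap (difference -0.063, SE 0.052, limma adjusted p = 0.540). Of 10 tested further assembly factors, 0 passed in either direction (background 4.95%), 6 were below 0 (background 49.7%) and the median was -0.021. Those with the smallest p were Dmac1, a distal membrane arm factor (-0.15, limma adjusted p = 0.140), Tmem186 (-0.29, limma adjusted p = 0.199) and Tmem70 (-0.056, limma adjusted p = 0.667). Complexes II to V showed 32 of 35 tested genes below 0 (91.4%, background 49.7%), with 0 past the threshold (background 4.95%) and a median of -0.086. Complex I was thus not the only respiratory complex with this sign. The selection rested on genes of oxidative phosphorylation, so this count is a description and no separate evidence. In complexes II to V the smallest p were those of Uqcr11 (-0.20, limma adjusted p = 0.0612), Atp5d (-0.23, limma adjusted p = 0.0729) and Atp5c1 (-0.18, limma adjusted p = 0.101). None of the names searched for the mitochondrially encoded subunits was found on the array, so these subunits were not tested.

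Among 10 tested regulators of respiratory gene transcription, 1 fell and 0 rose (lower calls made up 1.99% of all genes), with a median of -0.023. Ppargc1b encodes PGC-1beta, a coactivator of ERR and NRF1 at genes of oxidative metabolism. It read 9.22, 9.41, 9.23 and 9.14 on scrambled and 8.87, 8.97, 8.98 and 8.93 on Ypel5 siRNA arrays. All Ypel5 siRNA arrays were below all controls, and it fell by 0.31 on the log2 scale (SE 0.065, limma adjusted p = 0.0344). The difference kept its sign in all 19 alternatives, between -0.39 and -0.23, while the call was lost in 11 of them. These were 7 of the 8 removals of 1 array, all but that of scrambled replicate 4 (differences from -0.32 to -0.26, limma adjusted p of up to 0.0880), and 4 other settings. The difference was -0.31 (limma adjusted p = 0.0754) with the replicate block and -0.31 (limma adjusted p = 0.114) without a detection filter. It was -0.23 (limma adjusted p = 0.161) with a common median per array and -0.30 (limma adjusted p = 0.163) without both replicate 1 arrays. Esrra, which encodes ERR alpha, was at 0.099 (limma adjusted p = 0.306) and Tfam, the mitochondrial transcription factor, at 0.094 (limma adjusted p = 0.426). Nrf1 was at -0.049 (limma adjusted p = 0.603), and Ppargc1a and Yy1 were detected on 0 arrays.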

How the data were processed

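Total RNA of 8 samples was labelled as biotinylated cRNA and hybridised to Illumina arrays, per the labels' protocols. The deposited non-normalized table holds, per the file headers, a linear intensity and a detection p-value of every probe on every array. The deposited normalized table holds log2 values made by the authors, and the submitters' processing notes name RMA. The software and build are not given in the sources used here. Background correction and quantile normalization used neqc (limma 3.58.1, R 4.3.3, offset 16). Probes were kept where at least 4 of 8 arrays detected them at p under 0.05, and the brightest kept probe by mean intensity stood for a gene (8145 genes). Names were updated through RefSeq (GRCm38.p6): 20734 probes had a current symbol, 3875 matched a synonym, 127 an identifier and 961 kept their name. Of the 34 tested members, 31 matched a promoter window.

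The source names gave the groups, and the descriptions gave the replicate numbers. A number in the source names is 1, 2, 1 and 1 on scrambled replicates 1 to 4. On Ypel5 siRNA replicates 1 to 4 it is 1, 2, 2 and 2. It differs from the replicate number on replicates 3 and 4 and is split unevenly between the groups. What it marks is not said, and it may mark shared sources. The groups were compared by limma (lmFit, eBayes, two-sided, Benjamini-Hochberg over all genes) without a block, a fit tested on simulated data. The list of genes under older names was made after the names in the file were seen. Members and other lists were chosen with earlier results of these data known. Described by array are the 8 members with the smallest p, the 3 with the largest differences above 0, the core and Ndufaf genes and Ndufa4. From each other list, genes past the threshold and those with the smallest p are named. Ndufaf5, Ndufb11, Ndufa5, Ndufb6, Ndufs4, Ndufab1, Ndufa13, Ndufb4 and the other members outside this rule were named after their values were seen. The values of 1 tested member are not reported here, though it enters the counts and medians. The alternatives changed the block, background correction, normalization, filter, probe rule, variance model and arrays. When arrays were left out, the kept probes stayed the same.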

Additional observations from a re-analysis of the deposited data

Results flagged for a closer look

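Of 40 groups of 4 arrays examined for a value far from the others, 3 had one, where chance gives about 1 in 20. Ndufv2 read 13.18 on Ypel5 siRNA replicate 4 and between 13.27 and 13.28 on the other arrays of its group. Ndufa4 read 14.34 on Ypel5 siRNA replicate 1 and between 14.21 and 14.23 on the others. The median deviation of accessory subunit genes was -0.062 on Ypel5 siRNA replicate 4 and between -0.045 and -0.041 on the others.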

How the results depend on the processing

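The absence of complex I genes among the higher calls held in 19 of 19 alternatives, and 0 lower calls in 15 of 19. Without background correction and with the authors' normalized values 3 passed as lower (Ndufa3, Ndufb2 and Ndufb7), and with an intensity trend and robust variance 5 did (also Ndufa12 and Ndufb10). Leaving out 1 array gave between 0 and 1 (Ndufa3, without scrambled replicate 4). With background correction and a common median per array the median difference was -0.104 for complex I genes and -0.104 for accessory genes, while all genes moved to 0.037 and calls were split into 205 higher and 30 lower in place of 241 and 162. The core and assembly medians moved by less than the spread between arrays in all 19. All genes called numbered 403 and became 107 with the replicate block, 140 with the source name number as a covariate, 670 without background correction, 671 with the authors' values, 235 with a common median, 144 without a detection filter, 774 with an intensity trend, 74 without both replicate 1 arrays, and between 181 and 270 without any 1 array. Without both replicate 1 arrays 25 of 34 members were below 0, with a median of -0.081 and 0 calls. Of 304 values of the 16 named members under alternatives, 291 kept their sign and side of the threshold, 12 kept the sign and passed, and 1 changed sign, Ndufb5 at -0.019 without Ypel5 siRNA replicate 4 (up to 0.17 without scrambled replicate 4). The cause of these changes was not tested. Same-numbered arrays correlated at 0.039, -0.0035, -0.0015 and 0.18 in their deviations from the group means. Arrays with different numbers ranged from -0.15 to 0.11, so the value of the replicate 4 arrays was the highest. Both replicate 1 arrays had far fewer distinct detection p-values than every other array. With group means of only 4 arrays each, these correlations cannot decide whether the replicate number pairs the arrays. The block left the complex I calls at 0. The dim probes of Ndufb4 and Ndufab1 had the widest errors (SE 0.28 and 0.14), and Ndufb5, Ndufb2 and Ndufb11 came next.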
